A study of Mus musculus with 272 samples.

Results

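The change of the transcriptome from the zygote to the 2-cell mouse embryo was measured in 8 libraries, 4 of zygotes and 4 of 2-cell embryos, out of 272 libraries in the series. The members are the columns labelled as zygote and 2-cell transcriptomes in 1 deposited table, and 1 of each set of gene rows with identical values was kept. The series fractionated ribosomes of oocytes and embryos at 8 stages, beginning with oocytes at the germinal vesicle (GV) and at metaphase II (MII) and ending with blastocysts, and sequenced a transcriptome beside them. Each transcriptome library came from a pool of 20 embryos, so p-values here measure the spread between these pools. Strain, age of the females, way of fertilization and hour of collection are not given in the sources used here, and no treatment or genotype sets the stages apart. This pair of stages shows which RNAs take a larger and which a smaller share of a library's reads after the first cell division.

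A fertilized egg starts on RNA that the oocyte made and stored. In the mouse, a minor wave of transcription begins in the zygote and the major wave of zygotic genome activation follows in the 2-cell embryo, while much of the maternal RNA is degraded. Genes of the Zscan4, Zfp352, Usp17l and Eif1ad families are known as markers of the 2-cell stage. The Obox homeobox genes, Nr5a2, Klf and Dppa factors are among the regulators linked to the activation. Smart-seq kits copy RNA from its poly(A) tail, and tails shorten and lengthen in oocytes and early embryos, so here less RNA and a shorter tail cannot be told apart. A share of a library's reads also says nothing of the total RNA of an embryo, and fewer cells with an RNA and less of it per cell cannot be told apart in pools.

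Levels are in CPM, the reads of a gene scaled to its library's total, with no scaling for gene length. Depth ran from 16671352 to 20566204 reads in zygote libraries and from 11231458 to 14940158 reads in 2-cell libraries. The 2-cell libraries were shallower and yet held more genes at 1 CPM or above, 12077 to 12457 against 10292 to 10430. Across genes, Pearson's r of log2(CPM + 1) was 0.989 to 0.992 between zygote libraries, 0.973 to 0.980 between 2-cell libraries, and 0.849 to 0.870 between the stages. No pair of libraries agreed within sampling noise. The 2-cell library E stood somewhat apart: a chi-square of reads over genes per degree of freedom was 46.3 to 56.3 for its pairs with F, G and H, and 13.8 to 16.1 among those 3. In zygotes it was 21.9 to 37.5 for pairs with library B, and 14.9 to 20.5 among A, C and D.

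Changes are differences of log2(CPM + 1), 2-cell minus zygote, tested with limma over the 32 transcriptome libraries of all stages. A gene was called when its Benjamini-Hochberg adjusted p was under 0.05 and its change at least 1 in size. Of 14642 genes tested, 4959 were called (33.9%), 3684 higher in 2-cell embryos (25.2%) and 1275 lower (8.71%). This split depends on the scale. The median change of all tested genes was 0.37 as deposited. With quantile normalization the median was -0.08 and 2189 were called higher (15%) and 2529 lower (17.3%). With each library centred on its median, the median change was -0.35, 1681 were called higher (11.5%) and 3202 lower (21.9%). Without library E, 3583 were called higher and 1337 lower. Changes below are on the deposited scale, are to be read against that median of 0.37, and understate the change of genes near 0 because of the added 1 CPM. Counts of calls in gene lists are likewise to be read against the 25.2% higher and 8.71% lower among all tested genes. In 5769 genes all 4 2-cell libraries lay above all 4 zygote libraries (39.4%), and in 2246 all lay below (15.3%).

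**Figure D1:**
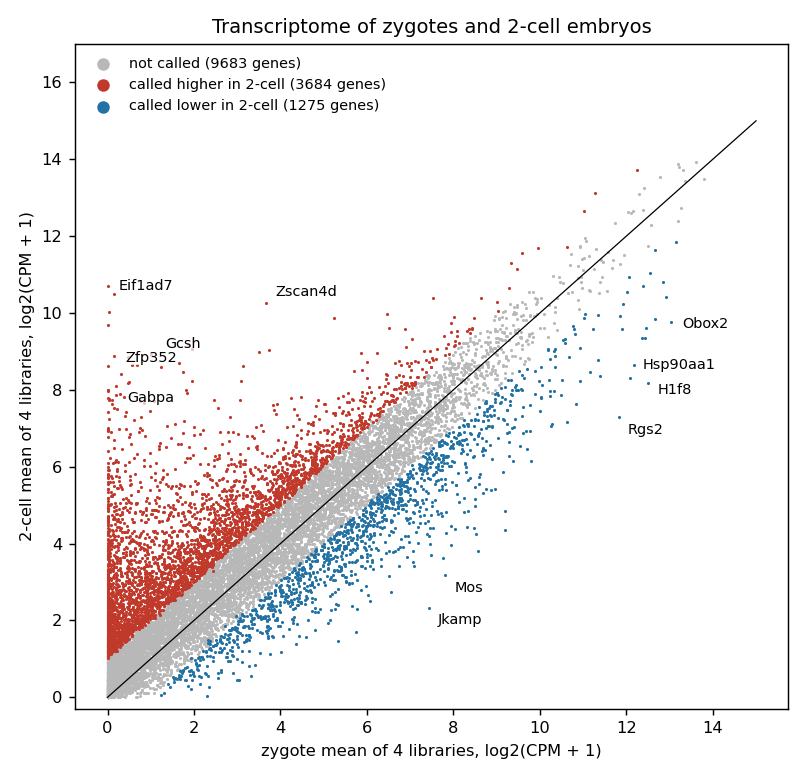
Mean level of each tested gene in zygotes (x) and 2-cell embryos (y), both as log2(CPM + 1) over 4 libraries, with the line of equal level. Of the 3684 genes called higher, 1513 were under 1 CPM in zygotes, near the left edge, and the others lie further right. The 1275 called lower lie mostly at high zygote levels.

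Genes with little RNA in zygotes were called higher more often than abundant ones, and abundant ones were called lower more often. A gene had to reach 1 CPM in 4 of the 32 libraries to be tested, so genes near 0 in zygotes entered through another stage. Genes with a zygote mean under 1 CPM could not be called lower, since even a fall to 0 changes log2(CPM + 1) by under 1. Part of this contrast is therefore set by the filter and the threshold. Of 1388 tested genes at or under 3 reads in each zygote library, 498 were called higher (35.9%), and 259 of the called genes had 0 reads in all 4 zygote libraries. Of 1571 genes at 100 CPM or more in zygotes, 89 were called higher (5.67%) and 470 lower (29.9%). Genes called higher took 5.64% ± 0.419 of zygote reads and 21.7% ± 1.19 of 2-cell reads (SD, n = 4). Genes called lower took 32.6% ± 0.55 and 9.04% ± 0.385. These shares describe genes chosen for their change and add no test to it. The rises were also larger: 66 genes rose by 6 or more and 196 by 4 to 6, while 11 fell by 4 to 6 and none of the called genes fell by 6 or more.

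The 498 genes that rose from the floor had a median of 0.07 CPM in GV oocytes, 0 in MII oocytes and zygotes, 3.2 in 2-cell and 6.68 in 4-cell embryos, and 421 of them were at 1 CPM or more in 4-cell embryos. In GV oocytes 28 of them reached 1 CPM. Among all 3684 genes called higher, the median was 4.24 CPM in GV oocytes, 1.52 in MII oocytes, 1.79 in zygotes and 12.7 in 2-cell embryos. The 1275 genes called lower had medians of 59.5 CPM in GV oocytes, 70.6 in MII oocytes, 59.2 in zygotes, 17.2 in 2-cell and 16.5 in 4-cell embryos. Protein-coding genes were called higher in 3367 of 13196 cases (25.5%), long noncoding RNAs in 140 of 655 (21.4%) and pseudogenes in 115 of 552 (20.8%).

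Among genes with a name, copies of translation factor genes that are known from 2-cell embryos gave the largest rises. The Eif1ad genes resemble Eif1a, which helps the small ribosomal subunit find the start codon, and all 10 tested members of this list of Eif1ad and Eif4a3l copies were called higher, with quantile normalization and with median centring as well. Eif1ad7 had 0 reads in every zygote library and 1163, 1896, 1794 and 1791 CPM in 2-cell libraries E, F, G and H. It was at least 10513-fold higher, against a floor of 3 reads per zygote library, with a change of 10.67 (SE 0.302, limma adjusted p 6.99e-26). Library E was the lowest of the 4. Eif1ad3 reached 1033 ± 186 CPM and Eif1ad8 818 ± 120, each at or under 2 reads in any zygote library. Eif1ad7 was low again afterwards, at 7.44 CPM in 4-cell embryos, 27.2 in morulae and 0.865 in blastocysts. Eif4a3l1 and Eif4a3l2, copies of the exon junction helicase gene Eif4a3, rose from 0.145 ± 0.101 to 231 ± 65.4 and from 0.222 ± 0.0453 to 239 ± 68.5 CPM. Reads of such near-identical copies can be split or lost between them, so the level of a single copy is uncertain. Eif1a itself rose from 0.704 ± 0.484 to 155 ± 38.2 CPM (change 6.53, SE 0.222, limma adjusted p 1.38e-23) and stood at 446 CPM in 4-cell embryos.

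**Figure D2:**
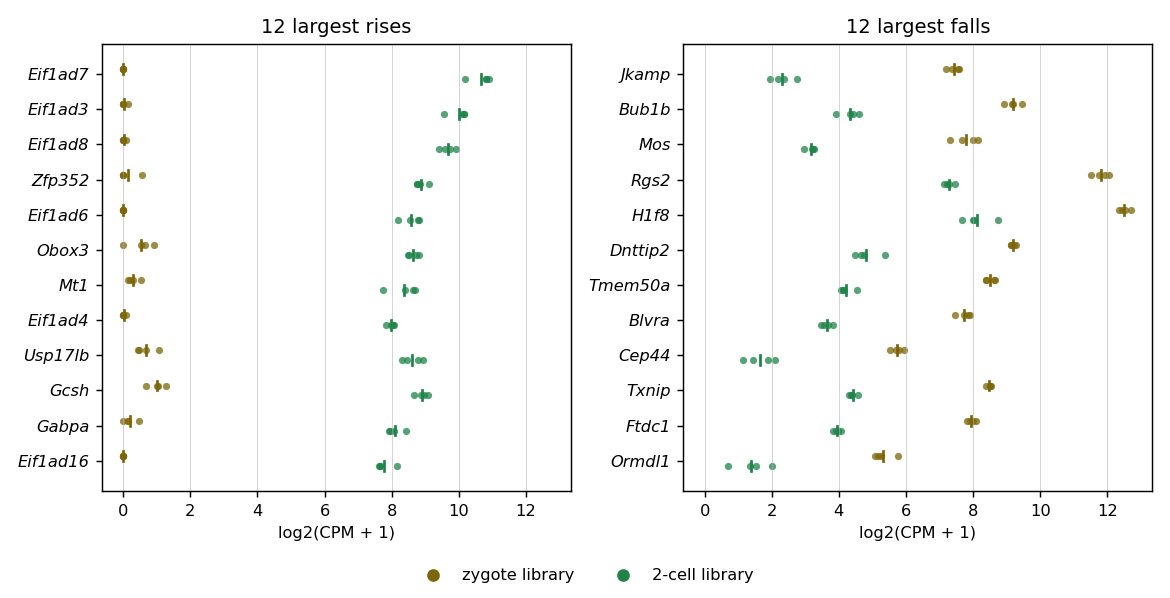
Level of the 12 genes with the largest rises (left) and the largest falls (right), as log2(CPM + 1). Each of the 4 zygote and 4 2-cell libraries is a point, and short bars are means. Gene models without a name were left out. The stages do not overlap in any of these 24 genes, which were chosen for that, and the risers sit near 0 in zygotes while the fallers keep some RNA in 2-cell embryos.

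Beyond these copies, the list of genes known to mark activation at the 2-cell stage had 24 tested members, of which 22 were called higher and none lower, also with quantile normalization (20 and 1 with median centring). The median change was 5.47, or 6.46 with the 7 members at the zygote floor set to their bound. Zfp352, a zinc finger gene known as a 2-cell marker, was at 0 in 3 zygote libraries and at 0.467 CPM in zygote C. In 2-cell libraries it stood at 433, 455, 552 and 428 CPM, a change of 8.72 (SE 0.356, limma adjusted p 2.69e-21). Usp17lb, one of a family of deubiquitinase genes, rose from 0.612 ± 0.339 to 398 ± 79.4 CPM. Zscan4d, of the family linked to telomere upkeep, had 10.8, 19.4, 7.76 and 8.61 CPM in zygotes and 1059, 1187, 1572 and 1075 CPM in 2-cell embryos. Zscan4a, listed as a transcribed pseudogene, had the largest change of that family and rose from 1.35 ± 0.72 to 382 ± 43.8 CPM. Reads may be shared among similar Zscan4 copies and among Usp17l copies, so the level and rank of a single copy are uncertain. Ubtfl1, related to a factor of ribosomal RNA transcription, rose from 0.168 ± 0.2 to 181 ± 31.1 CPM. Tcstv1 was already at 129 ± 19.1 CPM in zygotes and rose to 363 ± 6.1, a call lost with median centring (0.77) and with DESeq2 (adjusted p 0.0962). The members not called were Arg2, at 79 ± 19.6 and 118 ± 9.36 CPM, and Sp110, at 188 ± 24.6 and 98.7 ± 17.2. Sp110 was called lower with median centring (-1.66), edgeR (-1.26) and DESeq2 (-1.33), and without library E (-1.03).

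A few runs of neighbouring genes rose together. These runs were picked for their change, and whether neighbours rise together more often than other genes was not tested. A run of 7 consecutive tested genes that ended at Tcstv3 all changed by 3 or more, with 2-cell levels of 95 to 295 CPM and zygote levels of at most 21.3 CPM. A run of 4 Tdpoz genes (Tdpoz1, Tdpoz4, Tdpoz5, Tdpoz9) went from at most 0.164 CPM to 12.1 to 31.8 CPM. These are clusters of similar copies, so reads may be shared within a run.

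The 250 bases before the start of 4 of the strongest risers are shown because they differ in kind. They come from RefSeq, build GRCm38.p6, while the submitters' processing notes name GRCm39. Capitals mark matches, on either strand, to 5 short words: GGATTA (the core of OBOX and OTX type homeodomain sites, TAATCC on the other strand), TATAAA (a core promoter box), AAGGTCA (NR5A type nuclear receptors), CCGGAAG (GABP and other ETS factors) and CCAAT (NFY, ATTGG on the other strand). No entry was found for the Eif1ad genes among these promoters. Zfp352 lies at chr4:90218570-90218819 on the plus strand, Obox3 at chr7:15639778-15640027 on the minus strand, Usp17lb at chr7:104842584-104842833 on the minus strand, and Gabpa at chr16:84834874-84835123 on the plus strand.
Zfp352: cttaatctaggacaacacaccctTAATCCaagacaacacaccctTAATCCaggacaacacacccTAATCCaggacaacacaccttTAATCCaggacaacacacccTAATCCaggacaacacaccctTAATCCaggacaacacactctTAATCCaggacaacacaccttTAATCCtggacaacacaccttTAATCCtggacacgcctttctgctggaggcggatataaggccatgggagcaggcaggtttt
Obox3: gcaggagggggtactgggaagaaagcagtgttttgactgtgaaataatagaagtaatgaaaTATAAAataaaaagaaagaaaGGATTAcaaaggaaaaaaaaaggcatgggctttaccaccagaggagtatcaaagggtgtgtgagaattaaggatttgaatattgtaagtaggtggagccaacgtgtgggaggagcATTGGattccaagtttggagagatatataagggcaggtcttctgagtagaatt
Usp17lb: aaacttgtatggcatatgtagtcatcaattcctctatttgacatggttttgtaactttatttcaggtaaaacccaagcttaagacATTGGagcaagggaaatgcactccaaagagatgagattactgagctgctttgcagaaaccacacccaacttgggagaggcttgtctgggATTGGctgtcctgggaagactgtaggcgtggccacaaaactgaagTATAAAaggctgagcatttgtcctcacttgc
Gabpa: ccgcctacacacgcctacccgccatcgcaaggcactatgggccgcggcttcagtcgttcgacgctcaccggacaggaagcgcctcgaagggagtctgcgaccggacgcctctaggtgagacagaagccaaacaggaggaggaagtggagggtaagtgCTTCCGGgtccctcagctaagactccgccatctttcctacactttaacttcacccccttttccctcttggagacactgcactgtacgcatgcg
The Zfp352 window is a short repeat with 9 copies of TAATCC, spaced 20 or 21 bases apart, and it is the only 1 of 27025 promoter windows of this length with as many copies of that word on either strand. The word GGATTA on either strand is held by 6.38% of these windows, TATAAA by 13.0%, AAGGTCA by 4.05%, CCGGAAG by 7.05% and CCAAT by 34.5%. Usp17lb has TATAAA 31 bases before its start. Windows of Zfp352, Obox3 and Usp17lb hold 2, 1 and 1 CpG, and that of Gabpa holds 19, against a median of 6 over all windows (quartiles 2 and 16). These matches are descriptions of letters and show no binding.

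Factors linked to genome activation changed in both directions. Of 29 tested, 12 were called higher (41.4%, against 25.2% of all genes) and 3 lower (10.3%, against 8.71%), with a median change of 0.69. The counts were 11 and 2 with quantile normalization and 10 and 5 with median centring. The Obox family itself was divided. Obox3 had 0, 0.569, 0.876 and 0.444 CPM in zygotes and 357, 368, 447 and 422 CPM in 2-cell embryos (change 8.11, SE 0.246, limma adjusted p 5.22e-25). Obox6 rose from the floor to 211 ± 49.4 CPM, at least 1338-fold, and stood at 1702 CPM in 4-cell embryos. Against these, Obox2 fell from 8427 ± 713 to 865 ± 110 CPM, and Obox1 fell from 9139 ± 541 to 3658 ± 416, a call lost with quantile normalization (-0.94). Obox7 fell from 1526 ± 53.6 to 596 ± 45.1 CPM, a call lost with a pseudocount of 0.1 CPM (adjusted p 0.0526). Obox5 was at 12583 ± 850 and 15615 ± 1767 CPM and was not called (0.31, limma adjusted p 0.186). Obox2 had been at 5973 CPM in GV oocytes and was at 3.72 CPM in 4-cell embryos, whereas Obox3 was at 1.64 CPM in GV oocytes. Their sequences are similar enough that reads could be shared.

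Gabpa, the DNA-binding subunit of an ETS factor that drives many housekeeping genes, had 0.0986, 0.379, 0 and 0.111 CPM in zygotes and 243, 266, 342 and 245 CPM in 2-cell embryos (change 7.90, SE 0.237, limma adjusted p 4.16e-25). It held that level in 4-cell embryos, at 259 CPM. Among the Klf factors, Klf5 rose from 0.158 ± 0.22 to 23 ± 3.98 CPM and Klf4 from 1.38 ± 0.158 to 23.1 ± 4.82, while Klf17, at 348 ± 87.1 and 253 ± 56.3 CPM, was not called and the stages overlapped (called lower with median centring, -1.18). Dppa4 rose from 5.26 ± 1.97 to 95.4 ± 14.5 CPM. Its partner Dppa2 was at 131 ± 19.8 and 210 ± 11.4 CPM, with all 2-cell libraries above all zygote ones but a change of 0.69, under the threshold. Nr5a2 was at 12.9 ± 1.17 and 23.3 ± 3.79 CPM (0.80) and reached 251 CPM in 4-cell embryos. Among genes of later lineages, Cdx2 was at 0.0146 and 0.251 CPM, Nanog at 0.371 and 0.716 and Pou5f1 at 16.5 ± 5.36 and 26.3 ± 11.1, where library E alone was at 42.9. Of 19 tested genes of later lineages and compaction, 6 were called higher (31.6%, against 25.2% of all genes) and 4 lower (21.1%, against 8.71%). The counts turned to 2 and 4 with either other scaling, and the median change was 0.61. Krt18, a keratin of the first epithelium, rose from 0 reads to 11.7 ± 5.55 CPM, and Lgals1, a galectin gene, from the floor to 47.7 ± 1.85. Gata3 fell from 107 ± 15.2 to 37.9 ± 1.59 CPM, and Cdh1 and Ctnnb1, the adhesion pair of compaction, fell from 59.4 ± 5.27 to 17.6 ± 4.69 and from 149 ± 13.5 to 25.1 ± 4.37.

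**Figure D3:**
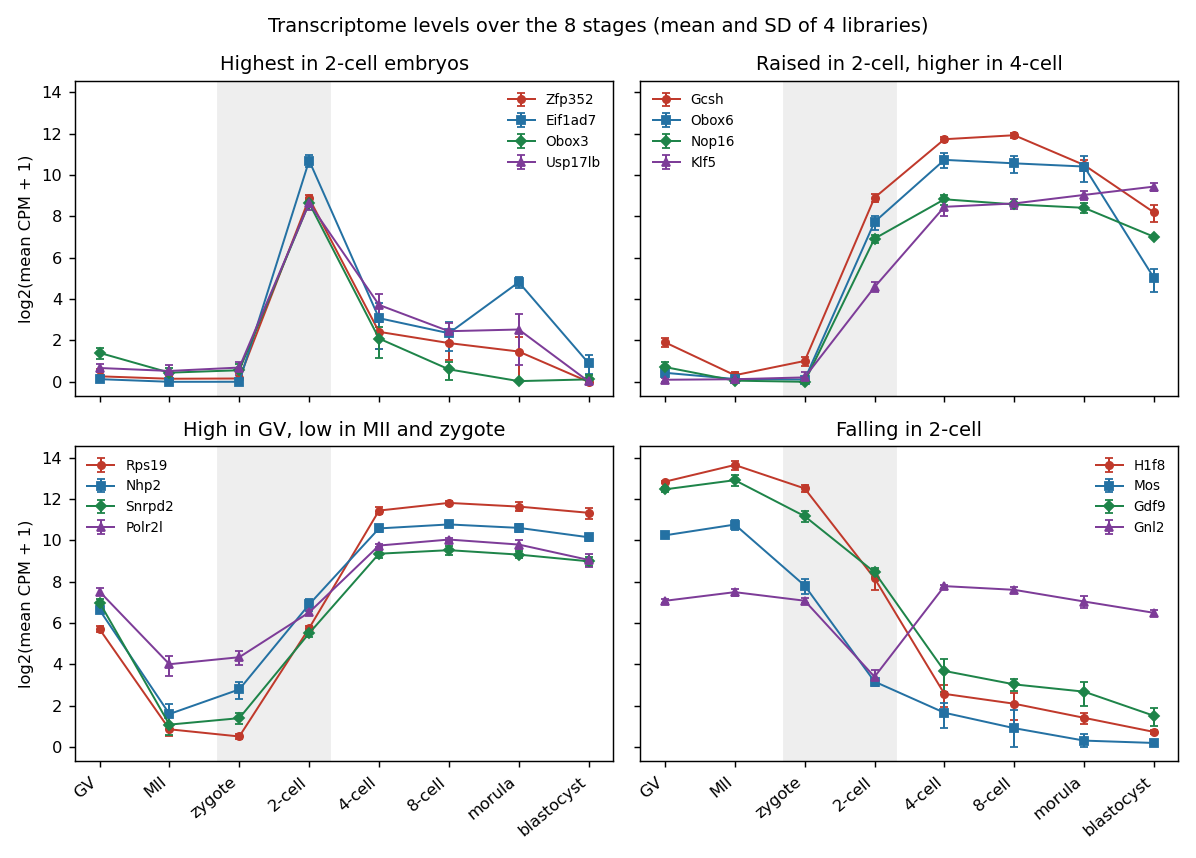
Transcriptome level of 16 genes over the 8 stages, as log2(mean CPM + 1), with bars for 1 SD over 4 libraries; the zygote and 2-cell stages are shaded. Zfp352, Eif1ad7, Obox3 and Usp17lb peak in 2-cell embryos, Gcsh, Obox6, Nop16 and Klf5 go on rising to the 4-cell stage, Rps19 and 3 others had been high in GV oocytes, and H1f8, Mos, Gdf9 and Gnl2 fall, of which Gnl2 is high again in 4-cell embryos.

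Other strong risers belong to no list. Gcsh, the lipoyl carrier of the glycine cleavage system, had 1.04, 0.996, 1.4 and 0.611 CPM in zygotes and 498, 404, 544 and 467 CPM in 2-cell embryos (change 7.90, SE 0.157, limma adjusted p 3.57e-30). Mt1, a metallothionein that binds zinc and copper, rose from 0.233 ± 0.15 to 341 ± 92.1 CPM. Both rose on, to 3399 and 3303 CPM in 4-cell embryos.

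Most ribosomal protein genes rose. Of 89 tested, 64 were called higher and 2 lower (53 and 2 with quantile normalization, 45 and 3 with median centring), with a median change of 1.76 against 0.37 for all genes, and their summed level went from 1923 to 2269 CPM in zygote libraries to 5233 to 5803 CPM in 2-cell libraries. Rps19 had 0.296, 0.569, 0.525 and 0.333 CPM in zygotes and 55.6, 54.2, 56 and 46.1 CPM in 2-cell embryos (change 5.24, SE 0.143, limma adjusted p 2.94e-26). In GV oocytes it had stood at 51.3 CPM, in MII oocytes at 0.82, and in 4-cell embryos it stood at 2783. Rpl41 rose from 12.4 ± 2.53 to 521 ± 96.9 CPM, Rpl9 from 0.137 ± 0.243 to 52.6 ± 7.22, and Rplp0 of the ribosomal stalk from 87.4 ± 4.08 to 1010 ± 137. Rpl17 fell from 281 ± 13.3 to 117 ± 4.89 CPM and Rpl5 from 109 ± 5.32 to 50.7 ± 5.11, the latter a call lost once a trend with GC content was removed (-0.97). Ribosomal protein genes have many processed pseudogene copies, so reads may have been assigned elsewhere.

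Ribosome assembly genes were split. Of 54 tested, 17 were called higher (31.5%, against 25.2% of all genes) and 13 lower (24.1%, against 8.71%), with a median change of -0.16. The counts turned to 12 and 19 with quantile normalization and 11 and 25 with median centring. Nop16, a nucleolar protein of large subunit assembly, went from 0 reads in 4 zygote libraries to 133, 104, 136 and 109 CPM, at least 762-fold (change 6.91, SE 0.148, limma adjusted p 2.48e-29). Nhp2, a subunit of the particle that makes pseudouridine in RNA, rose from 5.93 ± 1.93 to 119 ± 22.8 CPM. Its partner Dkc1, the enzyme of that particle, fell from 491 ± 44.4 to 163 ± 35.2 CPM. Gnl2, a nucleolar GTPase, fell from 135 ± 12.1 to 9.58 ± 2.75 CPM and was back at 220 in 4-cell embryos, and Ncl, nucleolin, fell from 767 ± 52.3 to 159 ± 25.8. Npm1, at 1284 ± 127 and 851 ± 89.2 CPM, was not called (-0.59; called lower with median centring, -1.32). For RNA polymerase I, the subunits Polr1b, Polr1c, Polr1d and Polr1e and the cofactors Ubtf, Rrn3 and Taf1d were called higher, with Polr1c at 3.95 and 56.3 CPM, and the cofactor Taf1b was called lower, from 82.5 to 20.4 CPM.

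The RNA polymerase II list had 7 of 39 tested genes called higher (17.9%, against 25.2% of all genes) and 5 lower (12.8%, against 8.71%). The counts turned to 6 and 7 with quantile normalization and 5 and 12 with median centring, and the median change was 0.25. Polr2l, Polr2e and Polr2h, subunits shared between polymerases, rose, while the shared subunits Polr2f (0.82) and Polr2k (0.34) were not called. Polr2l went from 19.4 ± 4.69 to 90.7 ± 8.59 CPM and Polr2e from 25.8 ± 3.55 to 117 ± 23.5. Supt4a, an elongation factor subunit, rose from 27.1 ± 3.04 to 191 ± 20.8 CPM. The largest subunit, Polr2a, stood at 6.36 ± 0.513 and 11.1 ± 1.54 CPM and was not called (0.72). Mnat1, an assembly factor of the TFIIH kinase, fell from 51.9 ± 3.04 to 10.5 ± 1.48 CPM.

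Splicing genes leaned to falls. Of 50 tested, 16 were called lower and 10 higher (19 and 9 with quantile normalization, 25 and 8 with median centring), against 8.71% lower among all genes, with a median change of -0.28. Snrnp70 of the U1 particle fell from 225 ± 34.7 to 18.5 ± 5.54 CPM, while Snrpc of the same particle had 3.01, 2.56, 3.97 and 2.5 CPM in zygotes and 147, 116, 138 and 121 CPM in 2-cell embryos (change 5.04, SE 0.173, limma adjusted p 1.57e-23). Among the core Sm genes, Snrpd2 rose from 1.64 ± 0.501 to 44.5 ± 4.98 CPM and Snrpb from 1.91 ± 0.577 to 28.9 ± 9.85. Snrpd1 and Snrpd3, of the same ring, were called lower, from 514 to 241 and from 362 to 151 CPM.

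Among initiation factors, 14 of 44 were called higher (31.8%, against 25.2% of all genes) and 8 lower (18.2%, against 8.71%), with a median change of 0.52. The counts were 10 and 8 with quantile normalization, turning to 7 and 13 with median centring. Eif4e, the cap-binding protein, had 568, 559, 780 and 589 CPM in zygotes and 1398, 1689, 1745 and 1577 CPM in 2-cell embryos, a change of 1.37 that lost its call with median centring (0.64) and with DESeq2 (0.98). Eif4ebp1, a repressor of Eif4e, rose from 2.75 ± 0.497 to 44.4 ± 6.73 CPM. Eif3e, a subunit of the largest initiation factor, fell from 227 ± 44 to 27 ± 8.1 CPM.

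In the proteasome list, 14 of 47 tested genes were called higher (29.8%, against 25.2% of all genes) and 6 lower (12.8%, against 8.71%), turning to 8 and 9 with quantile normalization and 6 and 20 with median centring, with a median change of 0.12. Psma7 of the core ring had 836, 847, 896 and 767 CPM in zygotes and 98, 105, 74.5 and 71.9 CPM in 2-cell embryos (change -3.26, SE 0.119, limma adjusted p 8.04e-23), and Psma2 fell from 1286 ± 97.6 to 249 ± 37.8. Psmb10, a subunit of the inducible form, rose from 0.262 to 7.87 ± 1.82 CPM, and Psme1, of its activator, from 0.0771 to 6.54 ± 1.39. Psmf1, a proteasome inhibitor, rose from 63.4 ± 15.4 to 315 ± 39.9 CPM.

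Chaperone genes gave 11 of 32 called higher (34.4%, against 25.2% of all genes) and 4 lower (12.5%, against 8.71%), with a median change of 0.25. The counts were 9 and 5 with quantile normalization, turning to 7 and 10 with median centring. Hsp90aa1, the inducible form of HSP90, had 4421, 3486, 5526 and 5070 CPM in zygotes and 373, 379, 453 and 386 CPM in 2-cell embryos (change -3.52, SE 0.136, limma adjusted p 5.52e-22). It stood at 2666 CPM in 4-cell embryos, so the 2-cell level was a low point. The inducible HSP70 gene Hspa1b, known as an early transcript of the zygote, rose from 0.44 ± 0.388 to 10.7 ± 3.25 CPM. Its twin Hspa1a reached 1.33 ± 0.718 CPM, a call lost in 5 of the alternatives. Bag3, a partner of HSP70, went from 0 reads to 8.89 ± 1.53 CPM, and the constitutive Hspa8, at 133 ± 15 and 76.9 ± 11.4 CPM, was not called (-0.78), though edgeR (-1.11), DESeq2 (-1.18) and median centring (-1.51) called it lower.

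All 13 protein genes encoded by mitochondrial DNA, a list added after the values were seen, were called higher, with a median change of 1.76 (12 of 13 with quantile normalization and 7 of 13 with median centring, none lower in either). Together they took 0.851% to 1.63% of zygote reads and 2.13%, 4.86%, 4.26% and 4.97% of reads in 2-cell libraries E, F, G and H, so library E held the smallest share. In GV oocytes the share was 0.15% to 0.183%. CYTB, of respiratory complex III, had 4582, 3337, 6583 and 4894 CPM in zygotes and 6801, 16858, 14044 and 16637 CPM in 2-cell embryos (change 1.44, SE 0.26, limma adjusted p 1.28e-05), without overlap between the stages, a call lost with median centring (0.72). The call for ND3, a small subunit of complex I at 6.06 ± 0.826 and 19.1 ± 8.34 CPM, was lost in 5 alternatives. Without these genes and ribosomal RNA, 3829 genes were called higher and 1224 lower.

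Nuclear genes of oxidative phosphorylation were called higher in 22 of 76 cases and lower in 4, turning nearly even with quantile normalization (16 and 13) and to mostly lower with median centring (11 and 16). The median change of this list, 0.38, was close to the 0.37 of all genes, and its shares called, 28.9% higher and 5.26% lower, were near the 25.2% and 8.71% of all genes. Cyc1, cytochrome c1, rose from 1.04 ± 0.287 to 26.5 ± 12.1 CPM and Cox7b from 8.02 ± 1.63 to 71.5 ± 13.4. Uqcrc2, a core subunit of the same complex as Cyc1, fell from 316 ± 41.4 to 20.6 ± 4.59 CPM. In glycolysis and pyruvate use, 12 of 27 were called higher and 1 lower (7 and 0 with quantile normalization, 6 and 2 with median centring), with a median change of 0.85. Ldha had 0.0986, 0, 0.117 and 0 CPM in zygotes and 39.1, 28.1, 28.5 and 30.8 CPM in 2-cell embryos, at least 200-fold higher (change 4.94, SE 0.224, limma adjusted p 5e-20). Ldhb, the lactate dehydrogenase of the oocyte, fell from 4279 ± 231 to 1943 ± 623 CPM, a call lost with quantile normalization (-0.54). Slc2a3, a glucose transporter, rose from 0.303 ± 0.393 to 11.6 ± 3.3 CPM, and Aldoa and Tpi1 of glycolysis from 16.2 ± 2.68 to 77.1 ± 20.8 and from 9.72 ± 3.1 to 62.2 ± 8.75.

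Enzymes of nucleotide synthesis were called higher in 8 of 26 cases (30.8%, against 25.2% of all genes) and lower in 4 (15.4%, against 8.71%), or 5 and 4 with quantile normalization, turning to 5 and 7 with median centring, with a median change of 0.25. The first enzyme of purine synthesis, Ppat, had 0.838, 0.19, 0.35 and 1.56 CPM in zygotes and 114, 116, 144 and 117 CPM in 2-cell embryos (change 6.21, SE 0.199, limma adjusted p 2.65e-24). Impdh2, which makes the precursor of guanine nucleotides, rose from 0.983 ± 0.684 to 41.3 ± 9 CPM. The next enzyme on that branch, Gmps, was called lower, from 208 to 49.9 CPM.

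Regulators of G1 and S phase leaned to rises, with 12 of 24 called higher and 1 lower (10 and 2 with quantile normalization, 5 and 3 with median centring) and a median change of 0.99. Ccne1, the cyclin that starts S phase, had 1.82, 3.79, 1.52 and 2.28 CPM in zygotes and 172, 78, 112 and 108 CPM in 2-cell embryos (change 5.13, SE 0.219, limma adjusted p 9.05e-21). Its partner Cdk2 rose from 1.82 ± 0.54 to 18.6 ± 3.29 CPM and the inhibitor Cdkn1a from 1.77 ± 0.508 to 20.7 ± 3.2. Replication genes leaned to falls, with 11 of 42 called lower and 4 higher (13 and 4 with quantile normalization, 24 and 1 with median centring) and a median change of -0.38. Prim2, the large primase subunit, fell from 113 ± 11.8 to 14 ± 3.05 CPM, and Orc6 of the origin complex from 1472 ± 139 to 631 ± 49, a call lost with quantile normalization (-0.88). Rpa2, of the single-strand binding complex, rose from 11.4 ± 3.38 to 58.9 ± 12.7 CPM.

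**Figure D4:**
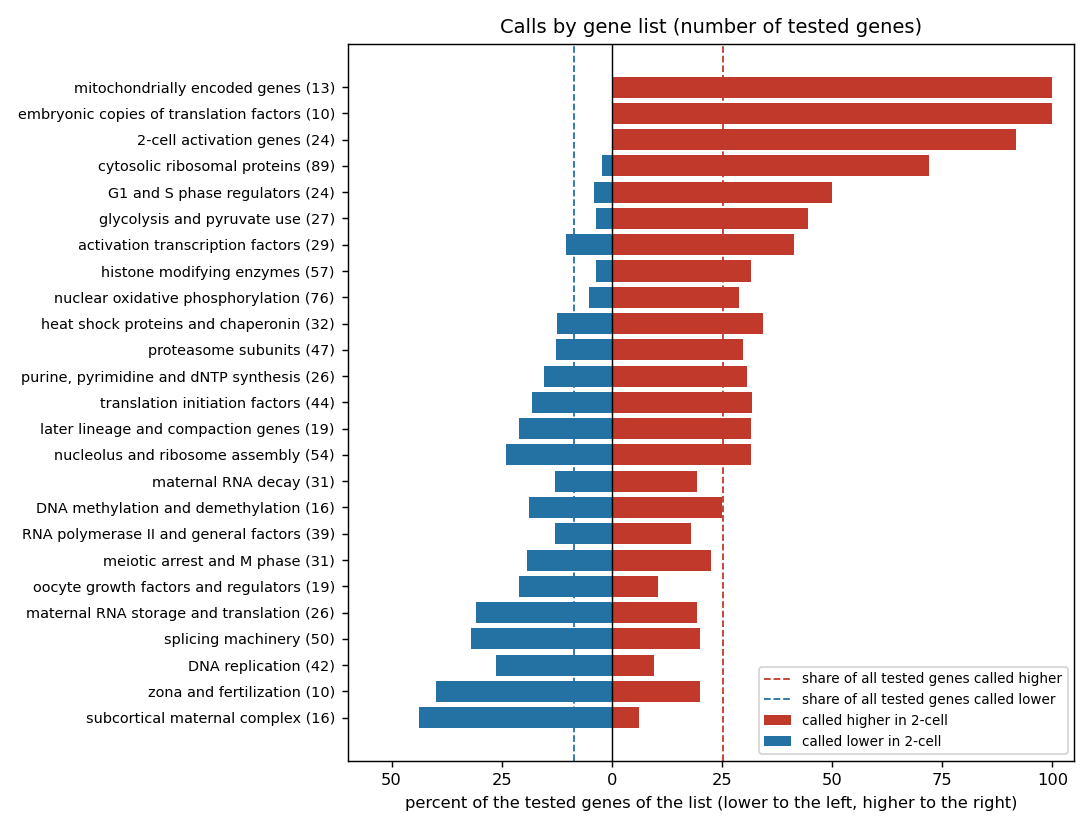
Share of the tested genes of each list called higher (right, red) or lower (left, blue) in 2-cell embryos on the deposited scale, with the number tested in brackets; dashed lines mark 25.2% and 8.71%, the shares over all tested genes. Lists with under 10 tested genes are left out, and the 6 lists at the bottom, from oocyte growth to the subcortical complex, have more genes called lower than higher; with quantile normalization or median centring several lists in between turn to more falls than rises, as given list by list in the text.

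Regulators of meiosis and mitosis held some of the largest falls. Bub1b, a spindle checkpoint protein, had 585, 479, 566 and 702 CPM in zygotes and 20.5, 19.2, 14 and 23.4 CPM in 2-cell embryos (change -4.86, SE 0.169, limma adjusted p 2.54e-23). Mos, the kinase that holds eggs at metaphase II, fell from 224 ± 55.4 to 8 ± 0.792 CPM, having been at 1741 CPM in MII oocytes. Aurkc, an Aurora kinase of meiosis, fell from 323 ± 29.8 to 49.3 ± 10.3 CPM and Plk1 from 141 ± 22.2 to 46.9 ± 11.3. The kinase of M phase, Cdk1, rose from 46.6 ± 4.78 to 241 ± 29.6 CPM, as did its activator Cdc25c, from 1.58 ± 0.573 to 55.1 ± 8.1, and its inhibitor Wee1, from 3.04 ± 1.05 to 20.7 ± 5.5. Ccnb1, its cyclin, was at 6087 ± 264 and 5015 ± 282 CPM and was not called (-0.28; called lower with median centring, -1.01). Over the 31 tested genes of this list, 7 were called higher (22.6%, against 25.2% of all genes) and 6 lower (19.4%, against 8.71%). The counts turned to 5 and 8 with quantile normalization and 4 and 16 with median centring, and the median change was -0.28.

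Genes of the egg coat, fertilization and oocyte growth included rises, falls and members that were not called. H1f8, the linker histone of the oocyte, had 5532, 5905, 5223 and 6713 CPM in zygotes and 424, 262, 256 and 203 CPM in 2-cell embryos (change -4.40, SE 0.221, limma adjusted p 9.87e-19), after 12839 CPM in MII oocytes. Gdf9, the oocyte growth factor, fell from 2302 ± 396 to 352 ± 54.7 CPM, while its close relative Bmp15 was at 1880 ± 189 and 2382 ± 144 CPM and was not called (0.34). Zp3 of the zona pellucida fell from 221 ± 29.2 to 46.2 ± 9.45 CPM, while Zp2 stood at 137 ± 4.94 and 137 ± 21 (0.00). Zp1 fell from 71.4 ± 14.3 to 32.1 ± 3.88 CPM, a call lost without zygote library B (-0.99). Astl, the protease that hardens the coat, and Plat, a plasminogen activator, fell from 52.7 ± 14.7 to 10.8 ± 3.02 and from 321 ± 75.1 to 27.8 ± 4.21 CPM. Cd9, a membrane protein of gamete fusion, and Trpm7, a calcium channel, were called higher, at 27.7 ± 6.55 and 86.2 ± 8.63 and at 21.9 ± 3.92 and 49.9 ± 15.6 CPM. The first call was lost with median centring (0.90) and the second in 6 alternatives, without 2-cell library G among them (0.94). The other tested genes, Izumo1r, Itpr1 and Zbed3, were not called, though Izumo1r was called lower with median centring (-1.10). Of 10 tested genes of this list 4 were called lower and 2 higher (4 and 1 with quantile normalization, 5 and 0 with median centring), with a median change of -0.19. Of 19 oocyte growth genes 4 were called lower and 2 higher (2 and 1 with quantile normalization, 7 and 0 with median centring), with a median change of 0.34. Oosp1 and Oosp2, oocyte secreted proteins, fell from 5973 ± 563 to 2086 ± 320 and from 325 ± 13.8 to 133 ± 15.5 CPM, the first a call lost with quantile normalization (-0.94), and Taf4b rose from 18.2 ± 2.32 to 57.6 ± 4.6, a call lost with median centring (0.89).

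The subcortical maternal complex, a protein assembly beneath the egg membrane, had 7 of 16 tested genes called lower and 1 higher (7 and 1 with quantile normalization, 11 and 1 with median centring), with a median change of -0.96. Ooep had 2766, 2622, 2747 and 2605 CPM in zygotes and 309, 386, 288 and 338 CPM in 2-cell embryos (change -3.03, SE 0.224, limma adjusted p 5.01e-14). Padi6 fell from 411 ± 54.4 to 86.6 ± 17.6 CPM, Nlrp5 from 319 ± 36.5 to 78.8 ± 9.48 and Nlrp4b from 779 ± 96.7 to 117 ± 25.7. Zbed3, also counted above, stood at 9599 ± 3231 and 14259 ± 4999 CPM, with overlap between the stages, and Khdc3 was at 5.82 ± 1.06 and 6 ± 2.36. Dppa5a rose from 24 ± 2.25 to 121 ± 11.5 CPM.

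Proteins that store maternal RNA had 8 of 26 tested genes called lower (30.8%, against 8.71% of all genes) and 5 higher (19.2%, against 25.2%). The counts were 7 and 5 with quantile normalization and 8 and 3 with median centring, and the median change was 0.16. Zar1, an RNA-binding factor of the maternal store, had 457, 638, 462 and 442 CPM in zygotes and 46, 49.4, 32.7 and 40.4 CPM in 2-cell embryos (change -3.54, SE 0.232, limma adjusted p 1.69e-15). The poly(A)-binding proteins went in opposite directions: Pabpn1l, the oocyte form, fell from 246 ± 41.8 to 21.1 ± 5.71 CPM, and Pabpc1, the common cytoplasmic form, rose from 1.56 ± 0.617 to 45.6 ± 7.03. Patl2, a translational repressor of oocytes, fell from 18.7 ± 4.03 to 2.83 ± 0.78. Decay factors had 6 of 31 called higher (19.4%, against 25.2% of all genes) and 4 lower (12.9%, against 8.71%), with a median change of 0.37. The counts turned to 5 and 6 with quantile normalization and 3 and 10 with median centring. Btg4, the adaptor that brings the CCR4-NOT deadenylase to maternal RNA, stood at 14188 ± 514 and 11374 ± 1360 CPM and was not called (-0.33), though quantile normalization (-1.16) and median centring (-1.05) called it lower. Also not called was its partner Cnot7, at 2037 ± 163 and 2234 ± 328. Cnot3 fell from 126 ± 17 to 34.5 ± 12.3 CPM and the decapping cofactor Edc4 from 42 ± 4.56 to 11.2 ± 3.51, while Cnot10 rose from 3.39 ± 0.243 to 14.9 ± 1.67 and the destabilizing protein gene Zfp36l2 from 1.44 ± 0.358 to 14.2 ± 3.97.

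In DNA methylation, 4 of 16 tested genes were called higher (25%, against 25.2% of all genes) and 3 lower (18.75%, against 8.71%). The counts turned to 2 and 7 with quantile normalization and 1 and 7 with median centring, and the median change was -0.13. Dnmt1, the maintenance methyltransferase, had 356, 358, 358 and 377 CPM in zygotes and 33.9, 25.3, 30.5 and 32.7 CPM in 2-cell embryos (change -3.53, SE 0.175, limma adjusted p 7.51e-19). Tet3, the dioxygenase of the zygote, fell from 336 ± 26.6 to 117 ± 22.7 CPM and the imprint guardian Zfp57 from 1314 ± 468 to 385 ± 120. Dppa3, which shields maternal methylation, was at 5353 ± 592 and 6598 ± 694 CPM with overlap, and was not called (0.30). Uhrf2 rose from 0.549 ± 0.201 to 13.4 ± 1.19 CPM, and Dnmt3l from 18.4 ± 2.69 to 63.9 ± 17.2, a call lost with median centring (1.00, just under the threshold).

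Histone enzymes were called higher in 18 of 57 cases (31.6%, against 25.2% of all genes) and lower in 2 (3.51%, against 8.71%). The counts turned to 11 and 13 with quantile normalization and 6 and 15 with median centring, and the median change was 0.49. Hdac1, a deacetylase, had 5.22, 6.83, 7.01 and 7.06 CPM in zygotes and 118, 104, 153 and 103 CPM in 2-cell embryos (change 3.99, SE 0.181, limma adjusted p 4.82e-20). The H3K4 demethylase Kdm5b rose from 10.2 ± 1.35 to 60.5 ± 10.1 CPM and reached 525 in 4-cell embryos. Kdm4c and Kdm3a, demethylases of H3K9, rose from 0.359 ± 0.205 to 18.8 ± 4.03 and from 5.49 ± 2.39 to 42.1 ± 10.9, and Suv39h1, which writes that mark, from 0.473 ± 0.223 to 12.5 ± 1.95.

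The remaining large falls belong to no list. Jkamp, a membrane protein linked to JNK signalling, had 166, 188, 145 and 190 CPM in zygotes and 4.11, 3.53, 5.67 and 2.87 CPM in 2-cell embryos, the largest fall by the naming rule (change -5.12, SE 0.171, limma adjusted p 9.19e-24). Rgs2, a regulator of G protein signalling, fell from 3629 ± 557 to 154 ± 15.3 CPM. Txnip, a thioredoxin inhibitor, and Blvra, biliverdin reductase, fell from 358 ± 16.8 to 20.4 ± 1.68 and from 215 ± 29.2 to 11.4 ± 1.28. Dnttip2 fell from 582 ± 31.5 to 28 ± 8.45 CPM and was at 545 in 4-cell embryos, whereas Ftdc1 fell from 247 ± 20.9 to 14.5 ± 1.04 and was at 0.327 there. At the other end, the abundant genes with the smallest change were Mospd1, Gch1, Sap18, Ppp1r10, Sucla2 and Hprt, and Hprt, a purine salvage enzyme on the X chromosome, stood at 708 ± 37.3 and 717 ± 124 CPM.

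The gradients of the same series were also read for these extremes. Fractions 6 to 10, the dense side where ribosome-bound RNA sediments by convention, were averaged within each of 3 gradients per stage. All 12 of the largest risers among genes with a name were higher in all 3 2-cell gradients than in all 3 zygote gradients. Over all genes tested there, 1108 of 10535 were (10.5%). A gene under 1 CPM in every zygote gradient passed the filter of 1 CPM in at least 3 gradients only through the 2-cell gradients. Its order was then fixed, so the 10.5% is no measure for such genes. This held for all of the 12 risers except Mt1 and Gcsh. Mt1 had 1.45 CPM in zygote gradient A and Gcsh 6.44 CPM in zygote gradient C. Zfp352 was at 0.0238 ± 0.0412 CPM in zygote and 122 ± 67 in 2-cell fractions, and Usp17lb at 0.0309 ± 0.0288 and 253 ± 106 (SD, n = 3). Of the 12 largest fallers 11 reached 1 CPM in at least 3 gradients, the filter used there, and 10 of these were lower in all 3 2-cell gradients, against 26.3% of all genes. Dnttip2 overlapped, with 59.3 CPM in 1 2-cell gradient. Ormdl1 was under the filter, at 0.953 to 11.1 CPM in zygote gradients and at most 0.0404 in 2-cell ones. Per the series' design text, transcriptome pools and gradients of a stage came from the same batch. The filter also fixed the order of fallers under 1 CPM in every 2-cell gradient, such as Ftdc1. The genes were picked on the transcriptome, so the counts describe these 24 genes only and are no separate test.

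Markers of other cells were checked. Oocyte RNAs such as Gdf9, Bmp15 and Zp3 were high in the zygote libraries. Markers of the 2-cell stage varied there: Zfp352 was near 0, while Zscan4d, Tcstv3 and Tcstv1 had means of 11.7, 21.3 and 129 CPM. Each of these markers was higher in the 2-cell libraries. Of 12 cumulus and granulosa markers 3 were tested. Cyp19a1, aromatase, fell from 53.8 ± 4.41 to 7.35 ± 2.53 CPM, after 38 in GV and 62.7 in MII oocytes, and Fshr and Star were at most 1.95 and 2.58 CPM in any zygote or 2-cell library. Star was not called (0.94), but was called higher with edgeR (3.57), DESeq2 (3.57), a pseudocount of 0.1 CPM (2.39), the GC trend removed (1.04), and without 2-cell library F (1.29). The summed level of that list was 48.1 to 60.2 CPM in zygotes and 7.76 to 14 in 2-cell embryos, most of it Cyp19a1. Of 9 sperm markers 3 were tested and none called (1 lower, Akap4, with either other scaling), at 61.8 to 69.6 CPM in zygotes and 109 to 124 in 2-cell embryos in sum, most of it Odf2. The 1 tested blood gene, Hba-a1, an alpha globin, had 0 reads in all zygote libraries and 33.2, 39.8, 53.2 and 33.2 CPM in 2-cell embryos, and stood at 80.4 CPM in 4-cell and 2.65 in blastocysts. Other globin genes of the list were not analysed here, and the part of other cells in these results was not tested.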

How the data were processed

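Transcriptomes of pools of 20 oocytes or embryos were made with a Smart-seq2 type kit, per the labels' protocols. The authors deposited CPM values for 15854 gene symbols in 272 libraries, 210 of which were not used here, and the blastocyst values are a deposited signal scaled like CPM. Per the submitters' processing notes, tools included Trim Galore 0.6.7, FastQC, HISAT2 2.2.1, featureCounts 2.0.1 and edgeR, with GRCm39. The annotation and parameters are not given in the sources used here. Of 76 groups of identical rows (159 symbols) 1 row each was kept, leaving 15771. Whole reads could be recovered from 100% of deposited CPM values (tolerance 0.05 reads), and count tests on those reads called 5864 genes (edgeR 4.0.16) and 6009 (DESeq2 1.42.0).

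Genes at 1 CPM or more in at least 4 of 32 transcriptomes were tested as log2(CPM + 1) with limma 3.58.1 (R 4.3.3, trend) over 8 stages, with Benjamini-Hochberg adjustment. Levels are means ± SD (n = 4). On simulated data for this comparison (11263 genes), 83.3% of genes changed by 1.5, 97% of those changed by 2 and 0.0362% of unchanged genes were called. The simulation drew every stage at the zygote means and changed 200 genes, some up and some down. It held no shift of the median gene and far fewer changed genes than were called here, so these shares are not error rates of the real calls. Named genes included the 12 largest rises and the 12 largest falls at 20 CPM or more, without overlap between the stages. Gene models without a name, such as Gm numbers and Riken clones, were left out of these rises and falls. Also named were up to 4 called genes with the largest change in each list and all members of lists of at most 15 genes. The 6 smallest changes at 100 CPM or more were named too. The 45 others and the mitochondrially encoded list were added after the values were seen, and all members and lists were chosen with earlier results of these data known. Promoters (RefSeq, GRCm38.p6) were found for 76.4% of tested genes, under the 80% set as a minimum, so no motif share is given for called genes.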

Additional observations from a re-analysis of the deposited data

Results flagged for a closer look

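In the genes named here, 382 groups of 4 libraries were checked for 1 library far from the other 3, measured by its gap over the group's range, and 24 stood out; chance gives about 1 in 20. In 2-cell embryos, library E was low for Eif1ad7 (1163 CPM) and Eif1ad3 (758 CPM), and high for Eif4a3l1 (329 CPM), Bag3 (11.2 CPM) and Pou5f1 (42.9 CPM). Library F was high for Tmem50a (22.4 CPM) and low for Kdm5b (45.6 CPM). Library G was high for Hsp90aa1 (453 CPM), Ppat (144 CPM) and Cdk1 (286 CPM), and low for Psmf1 (256 CPM) and Nlrp5 (64.6 CPM). Library H was high for Eif1ad16 (283 CPM) and Oosp2 (156 CPM).

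In zygotes, library B was high for Zp3 (265 CPM), Zar1 (638 CPM) and Plk1 (174 CPM), and low for Zp2 (129 CPM), ND5 (516 CPM) and Btg4 (13424 CPM). Library D was high for Dnmt1 (377 CPM) and low for Mnat1 (47.4 CPM). Library A was low for Hdac1 (5.22 CPM) and library C high for Eif4e (780 CPM). In all of these except Zp2, Pou5f1 and Btg4 the gene was called on the deposited scale.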

How the results depend on the processing

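The split between rises and falls depended on the scaling and the threshold. With quantile normalization 2189 genes were called higher and 2529 lower, and with median centring 1681 and 3202; centring moves all genes by a common shift in each library, quantile normalization does not. A pseudocount of 5 CPM called 2917 in all and 1981 higher. Lower calls numbered 1956 with edgeR and 2143 with DESeq2. With the adjusted p alone, 8557 were called, 6185 higher and 2372 lower. Leaving out 1 library at a time gave 4884 to 5075 calls. A set of 1163 genes was called higher and 859 lower in each of the 20 settings that use the size threshold, and no called gene was called in the opposite direction in any of them. Of 158 named genes that were called, 21 lost the call in some setting. The cause was not tested. No paired analysis was possible because the 2-cell columns carry the letters E to H and the zygote columns A to D. Depth limits genes at or under 3 reads in a library (0.142 to 0.175 CPM in zygotes), for which only bounds of the fold are given.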

Other observations

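Gene models without a name, such as Gm numbers and Riken clones, were called higher in 371 of 1565 cases (23.7%), near the 25.2% of all genes. They made up 21 of the 100 largest rises and 2 of the 100 largest falls. A run of 6 such neighbours, from Gm4526 to Gm6176, all changed by 3 or more, from at most 0.964 CPM in zygotes to 9.79 to 63.3 CPM in 2-cell embryos. A further run of 4 neighbours held Syncrip, Snhg5, Zfp949 and Trim43a, at no more than 2.32 CPM in zygotes and 16.1 to 217 CPM in 2-cell embryos.

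Genes called higher that already had 10 CPM or more in zygotes, 777 in all, had a median of 48.5 CPM in GV oocytes, 20.1 in MII oocytes, 24.3 in zygotes, 72.5 in 2-cell and 58.5 in 4-cell embryos.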
